A study of Bos taurus with 8 samples.

Results

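Keratins are the intermediate filament proteins of epithelial cells, and 10 of them were examined in rumen papillae: KRT5, KRT14, KRT15, KRT17, KRT19, KRT4, KRT10, KRT8, KRT18 and KRT7. A member was measured where a probe of the array carried a RefSeq accession that the bovine reference (ARS-UCD2.0) gives for that symbol. This held for 5 of the 10 genes, each with 1 probe, among the 7788 gene symbols that could be named on the array. They were KRT14 (NM_001166575), KRT15 (NM_001130747), KRT17 (NM_001105322), KRT8 (NM_001033610) and KRT18 (NM_001192095). KRT5, KRT4, KRT10, KRT19 and KRT7 could not be matched to a probe by this rule and are not analysed here, which leaves out both suprabasal keratins of the set (KRT4 and KRT10). The study's list of differentially expressed genes has an entry annotated as similar to keratin 4, whose gene number is that of KRT4 in the reference. Its accession matched no probe here, so no value can be given for it. The measured members are therefore the type I keratins KRT14, KRT15 and KRT17 and the simple-epithelial pair KRT8 and KRT18. Of these, KRT14 and KRT15 are keratins of the basal layer.

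Rumen papillae of 4 ruminally cannulated Holstein cows were sampled on a low-concentrate diet (LC, 40% concentrate of dry matter) and on a high-concentrate diet (HC, 70% concentrate), on day 21 of each feeding period and 4 h after the morning feeding. The diets were given in a crossover, in which cows 1 and 2 ate LC in period 1 and then HC in period 2, while cows 3 and 4 ate HC first. All were lactating females fed a total mixed ration, on a diet with still less concentrate before the trial, and their ages are not given in the sources used here. Papillae were excised from the ventral sac and contain connective tissue, vessels and immune cells besides the epithelium. In such whole tissue, a smaller number of cells of a type and less RNA per cell cannot be told apart.

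Keratins form filaments only as pairs of a type I and a type II protein, and the pairs change as cells leave the basal layer. KRT5 with KRT14 is the usual pair of basal cells in stratified squamous epithelium, and KRT15 is another type I keratin of that layer. KRT17 is known from skin appendages and from epithelium that is injured or proliferating. KRT4 and KRT10 mark the layers above, KRT4 in moist mucosa and KRT10 in cornifying epithelium such as epidermis. KRT8 pairs with KRT18 in simple epithelia such as that of the intestine, where KRT7 and KRT19 are also found. The rumen wall is lined by a stratified squamous epithelium that keratinizes, which is why basal and suprabasal keratins are of interest there. In the gene order of the reference, KRT8 lies next to KRT18, although KRT18 is of type I. KRT15 lies between KRT13 and KRT19, KRT14 between KRT9 and KRT16, and KRT17 between KRT16 and KRT42.

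The median processed intensity of the 8 arrays ranged from 92.1 to 132, 76.9 to 81.2% of the 21475 probes were well above background, and no spot was saturated. Signals are given as log2 intensities after quantile normalization, and a negative log2 fold change means a lower signal on HC than on LC. Levels of different probes are not compared, because a probe's brightness also depends on its sequence. All 5 measured members were well above background on all 8 arrays, against 16030 of the 21475 probes of the array. A difference was counted where its fold change reached 1.5 and limma's unadjusted p was under 0.05. These thresholds are the study's, but its p values came from a general linear model and not from limma. For diet, 198 probes (0.922%) met both thresholds, 784 had an unadjusted p under 0.05 by limma, and 0 had an adjusted p under 0.05. The squamous epithelium markers with a probe were KRT14, DSG3 and DSC3, which passed that flag on all 8 arrays, and TP63, a transcription factor of basal cells, which was so on 0 arrays.

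Of the 5 measured keratins, 1 met both thresholds for diet, KRT8, which was lower in the HC group. Beside it, 0.428% of all probes met both thresholds with a lower HC signal. Among the 16030 bright probes, those well above background on all 8 arrays, 0.274% met both thresholds in either direction. The other 4 had log2 fold changes between -0.50 and 0.01. The median log2 fold change of the 5 was -0.11, beside a median of 0.00 over all probes. The signals of the LC and HC arrays overlapped for each of the 5 genes, while 1.6% of all probes had no overlap between the diets.

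**Figure D1:**
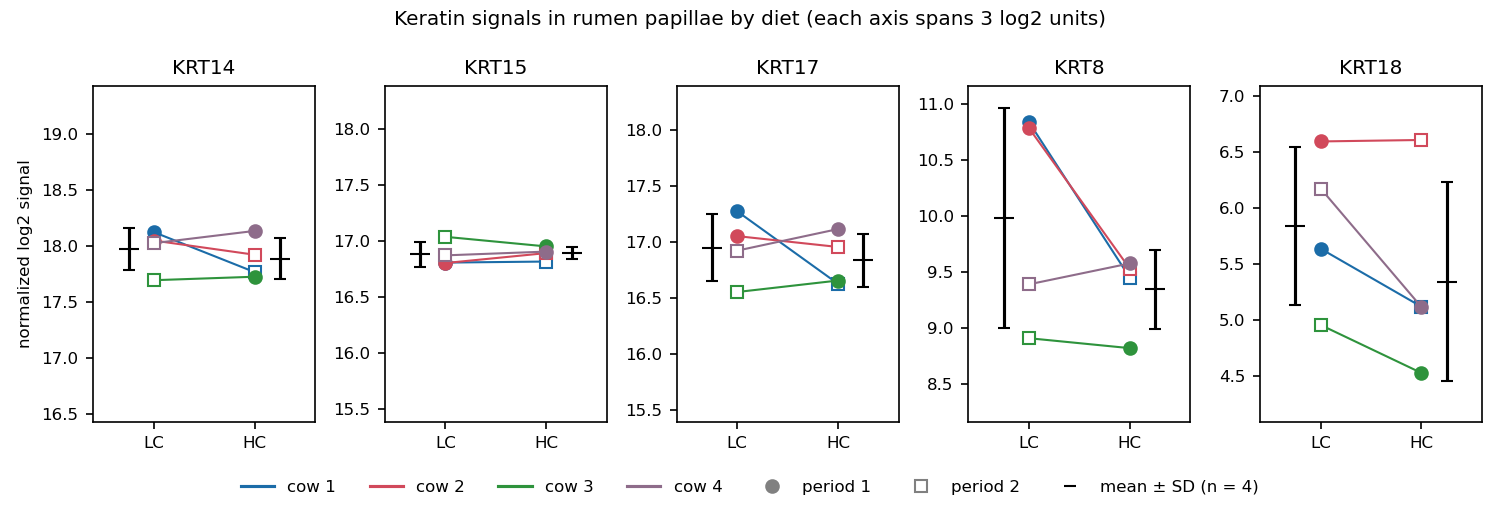
Normalized log2 signal of the 5 measured keratins (vertical axis, 3 log2 units in each panel) on the LC and HC diets, with a line for each cow, filled circles for period 1, open squares for period 2, and black bars for the mean ± SD of the 4 arrays of a diet. The LC arrays of cows 1 and 2 stand at 10.84 and 10.79 for KRT8, above the other 6 arrays, whereas the lines of KRT14, KRT15 and KRT17 stay within 0.73 log2 units.

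KRT14, the type I keratin that pairs with KRT5 in basal cells, had normalized log2 signals of 18.12, 18.05, 17.69 and 18.02 in the LC group (cows 1 to 4) and 17.77, 17.92, 17.72 and 18.13 in the HC group. The lowest signals of either diet were those of cow 3 on LC and HC, and cow 4 had the highest on HC. The LC mean was 17.97 ± 0.19 (SD, n = 4) and the HC mean 17.89 ± 0.19 (SD, n = 4). The KRT14 log2 fold change was -0.09 (standard error 0.14), with a 95% interval of -0.41 to 0.24. The unadjusted p from limma was 0.547, and an exact permutation test (two-sided, 4 arrays against 4) gave p = 0.543. A fold change of 1.5 in either direction lies outside that interval. The difference was smaller than the gap between the duplicate spots of this probe on the same array, which was 0.10 to 0.51 on the log2 scale. The KRT14 probe ranked between 4 and 29 of all probes in brightness, with processed intensities of 203937 to 292541. At such ranks, quantile normalization leaves a probe few values to take, and without any scaling between arrays the log2 fold change was -0.12.

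KRT15, a keratin of basal cells, had log2 signals of 16.81, 16.80, 17.04 and 16.87 in the LC group (cows 1 to 4) and 16.82, 16.89, 16.95 and 16.91 in the HC group. All 8 signals lay within 0.23 log2 units, the narrowest range of the 5 genes. Without scaling between arrays they ran from 16.63 to 17.05. Cow 3 had the highest KRT15 signal on each diet, while its KRT14 signal was the lowest on each diet. The LC and HC means were 16.88 ± 0.11 and 16.89 ± 0.06 (SD, n = 4 each). The KRT15 log2 fold change was 0.01 (standard error 0.09, 95% interval -0.20 to 0.22), and p was 0.898 by limma, unadjusted, and 0.800 by exact permutation. Its sign was positive after quantile normalization and negative with scaling to the 75th percentile (-0.03) or with no scaling (-0.05). No direction can be given for this gene.

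KRT17, the keratin of appendages and injured epithelium, had log2 signals of 17.27, 17.05, 16.55 and 16.92 in the LC group and 16.62, 16.95, 16.65 and 17.11 in the HC group, for cows 1 to 4. Cow 1 had the highest signal on LC and the lowest on HC, and the diets overlapped over nearly the whole range. The LC and HC means were 16.95 ± 0.30 and 16.84 ± 0.24 (SD, n = 4 each). The KRT17 log2 fold change was -0.11 (standard error 0.16, 95% interval -0.50 to 0.28), and p was 0.512 by limma, unadjusted, and 0.600 by exact permutation. Within the cows, the HC signal differed from the LC signal by -0.65 and -0.10 in cows 1 and 2 and by 0.10 and 0.19 in cows 3 and 4. KRT14 had the same signs, with -0.36, -0.13, 0.03 and 0.11. Across the 8 arrays the signals of KRT14 and KRT17 had a Pearson r of 0.961, a description only, since 4 cows gave the arrays. KRT14, KRT16 and KRT17 are close paralogs, and whether the probes of KRT14 and KRT17 also bind RNA of the others was not tested.

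KRT8, the type II keratin of simple epithelia, had log2 signals of 10.84, 10.79, 8.91 and 9.39 in the LC group (cows 1 to 4) and 9.45, 9.53, 8.82 and 9.58 in the HC group. The LC arrays of cows 1 and 2, both of period 1, lay at least 1.21 log2 units above the other 6 arrays, which ranged from 8.82 to 9.58. The duplicate spots of the KRT8 probe differed by 0.02 to 0.18 on any array. The LC and HC means were 9.98 ± 0.98 and 9.34 ± 0.35 (SD, n = 4 each). The KRT8 log2 fold change was -0.64, with a standard error of 0.20 and a 95% interval of -1.11 to -0.16, which is a 1.56-fold lower signal in the HC group. The unadjusted p from limma was 0.0166, the p adjusted over all probes 0.9995, and the exact two-sided permutation p 0.343. The permutation takes no account of cow, period or interaction, and limma with diet alone gave an unadjusted p of 0.194. A general linear model of the same terms without limma's moderation, which is nearer to the study's own test, gave an unadjusted p of 0.0476. The study lists KRT8 among its differentially expressed genes, and since that list was made from these arrays it is not independent of this result.

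The lower KRT8 signal came from cows 1 and 2. Their HC signal was below their LC signal by 1.39 and 1.26, whereas the difference was -0.09 in cow 3 and 0.19 in cow 4. Cows 1 and 2 received LC first and cows 3 and 4 received HC first, so the order of the diets, the period and the cow cannot be separated from this split. In period 1 the HC arrays lay 1.62 log2 units below the LC arrays, and in period 2 they lay 0.34 above them. The call for KRT8 required the interaction term in the fit or cow as a block together with period. With diet and period without their interaction, the unadjusted p was 0.159 at the same fold change, with cow as a block without period it was 0.0966, and with cow as a random block it was 0.0511. When period was fitted beside the cow block it was 0.00193. Nor did KRT8 meet the thresholds when the LC array of cow 4 was left out (log2 fold change -0.52, unadjusted p 0.0545 from limma) or when the HC array of cow 3 was left out, where the log2 fold change was -0.45 and below the fold threshold.

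**Figure D2:**
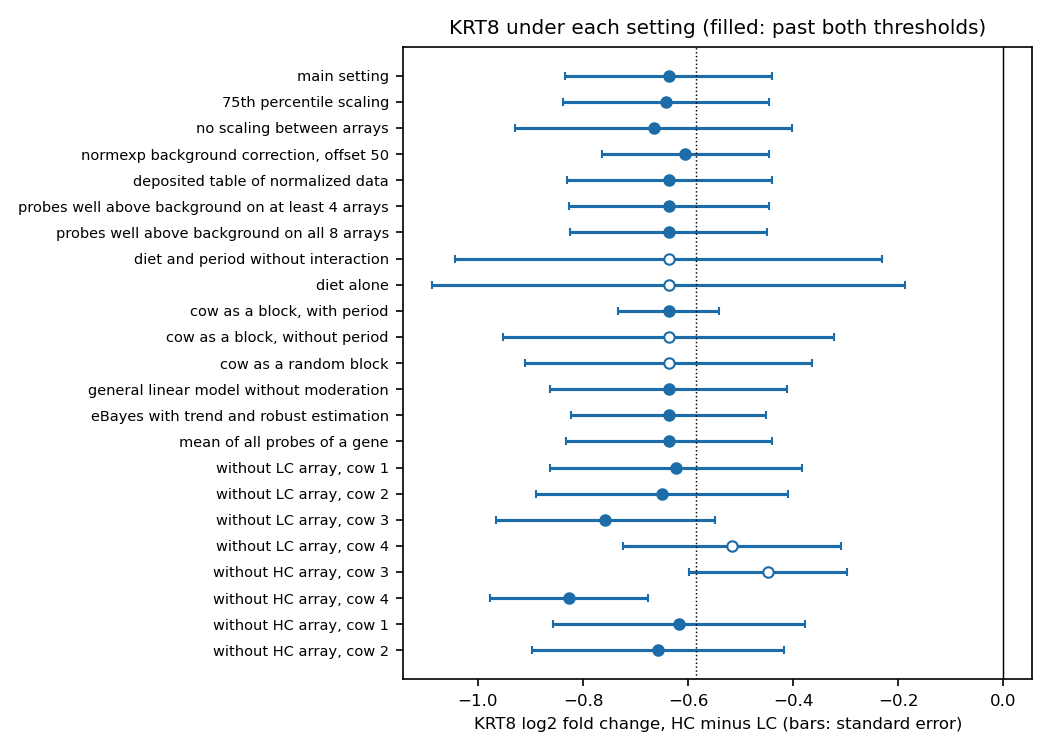
KRT8 log2 fold change, HC minus LC (horizontal axis), with its standard error under the main setting and 22 others, filled where both thresholds were met and open where they were not. The dotted line is a fold change of 1.5. The estimates lie between -0.83 and -0.45, and 6 of the 22 other settings are open.

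KRT18, the type I partner of KRT8, had log2 signals of 5.64, 6.60, 4.96 and 6.18 in the LC group (cows 1 to 4) and 5.12, 6.61, 4.53 and 5.12 in the HC group. Cow 2 had the highest signal and cow 3 the lowest on each diet. The LC and HC means were 5.84 ± 0.71 and 5.34 ± 0.89 (SD, n = 4 each). The KRT18 log2 fold change was -0.50 (standard error 0.45), with a 95% interval of -1.60 to 0.60, and p values of 0.311 by limma, unadjusted, and 0.457 by exact permutation. The signal was lower on HC in 3 of 4 cows, by 0.52 in cow 1, 0.43 in cow 3 and 1.06 in cow 4, and the difference was 0.01 in cow 2. This probe was dim, ranking between 11080 and 14635 of all probes in brightness, and its duplicate spots differed by 0.12 to 0.56 on the log2 scale. With normexp background correction the log2 fold change was -0.17. In this fit, which does not pair the arrays of a cow, a change of 1.5-fold in either direction lies inside the interval. With cow as a block, KRT18 had a standard error of 0.16 and an unadjusted p of 0.0323 from limma with period, and 0.19 and 0.0422 without period. A random effect of cow gave an unadjusted p of 0.198. The log2 fold change was -0.50 in each of these fits, under the fold threshold.

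KRT8 and KRT18 were alike in some contrasts and not in others. In period 1 the HC arrays differed from the LC arrays by -1.62 for KRT8 and -1.30 for KRT18. In period 2 these differences were 0.34 and 0.30. Each of these contrasts sets cows 1 and 2 against cows 3 and 4, so it holds the difference between cows as well. Within cows, the mean HC minus LC difference of KRT8 was -1.32 in cows 1 and 2 and 0.05 in cows 3 and 4. For KRT18 it was -0.25 and -0.74. Between periods, however, the difference was -0.69 for KRT8 and 0.25 for the dim KRT18 probe. Their order over single arrays also differed. Cow 1 on LC had the highest KRT8 signal of all and a KRT18 signal of 5.64, while cow 4 on LC had a KRT8 signal of 9.39 and the third highest KRT18 signal. The Pearson r of the pair over the 8 arrays was 0.570, as a description. KRT8 had an r of 0.733 with KRT14, 0.801 with KRT17 and -0.786 with KRT15. After quantile normalization, the r of KRT15 was negative with each of the other 4 members, between -0.786 and -0.517. KRT14, KRT15 and KRT17 are so bright that this normalization leaves them few values to take, so the sign may depend on the scaling. Without scaling, the HC array of cow 1 had the lowest signal of both KRT14 and KRT15, at 17.64 and 16.63. The r values share 8 arrays of 4 cows and their depth of signal, and no test was made of them.

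For period, with 2 arrays of each diet in each period and each period on a slide of its own, 1 of the 5 measured members met both thresholds, beside 3.86% of all probes and 1.95% of the bright ones. KRT8 had a mean of 10.01 ± 0.98 (SD, n = 4) in period 1 and 9.32 ± 0.28 (SD, n = 4) in period 2. The KRT8 log2 difference, period 2 minus period 1, was -0.69 (standard error 0.20). Its unadjusted p was 0.0121 by limma, with an adjusted p of 0.253 and an exact permutation p of 0.257. It did not meet the thresholds without the interaction term (unadjusted p 0.134 from limma), nor with the LC array of cow 3 left out (-0.57) or the HC array of cow 4 left out (-0.50), where it was under the fold threshold. The other 4 members had differences between periods of -0.26 to 0.25, and limma's unadjusted p values lay between 0.157 and 0.677.

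The interaction of diet and period, which in this crossover is the contrast of cows 1 and 2 with cows 3 and 4, was past both thresholds for KRT8 alone among the 5, beside 2.93% of all probes and 2.03% of the bright ones. The KRT8 signal was higher in cows 1 and 2 by 0.98 (standard error 0.20) on the log2 scale, a 1.97-fold difference, with an unadjusted p of 0.00221 and an adjusted p of 0.306 from limma. The means over both diets were 10.15, 10.16, 8.86 and 9.48 in cows 1 to 4. This fit takes the arrays of a cow as independent, and when limma was given cow means instead, the unadjusted p was 0.0136 and the adjusted p 0.817. KRT18 had a difference of 0.80 (standard error 0.45) with an unadjusted p of 0.127, and KRT14, KRT15 and KRT17 had differences of 0.07, -0.11 and 0.17. With the HC array of cow 1 left out, KRT18 was past both thresholds as well, at 1.17 with an unadjusted p of 0.0359 from limma.

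Beyond the members, 24 of the 47 other keratin genes of the reference had a probe, of which 12 were bright enough on all 8 arrays by the background flag, 2 on some arrays and 10 on none. None of the 12 met both thresholds for diet, beside 0.274% of the bright probes, a share so small that this count says little about these genes. Their log2 fold changes ranged from -0.17 to 0.48 with a median of 0.08, and the unadjusted p values from limma ranged from 0.230 to 0.926. KRT25 and KRT77, a keratin of hair roots and one of sweat ducts, are also listed by the study and met the thresholds, but their probes were well above background on 0 of the 8 arrays, so no fold change is given. No probe was matched to KRT1, KRT2, KRT13, KRT16, KRT6B or KRT6C, which include the partners of KRT10 and KRT4.

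**Figure D3:**
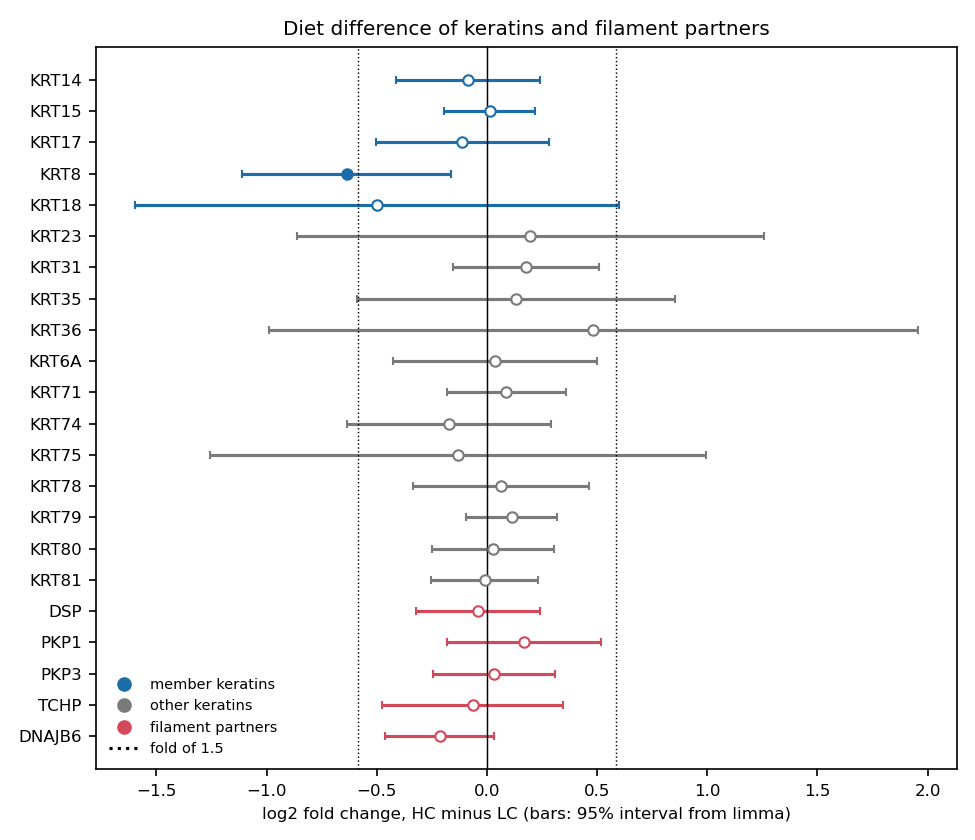
Log2 fold change of HC minus LC (horizontal axis) with its 95% interval from limma for the 5 members, the 12 other keratins among the bright probes and 5 proteins that tie to or bundle keratin filaments, where the dotted lines are a fold change of 1.5. KRT8 is the only filled point, and the intervals of KRT8, KRT18, KRT23, KRT35, KRT36, KRT74 and KRT75 reach past a dotted line.

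KRT6A, a type II keratin of proliferating squamous epithelium, had mean log2 signals of 17.66 ± 0.39 on LC and 17.70 ± 0.20 on HC (SD, n = 4 each). The KRT6A log2 fold change was 0.04 (standard error 0.19, 95% interval -0.42 to 0.50), and limma's unadjusted p was 0.849. Its lowest signals, 17.08 on LC and 17.42 on HC, were those of cow 3, as for KRT14. KRT6A has near-identical copies in KRT6B and KRT6C, so its signal is uncertain between them.

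KRT74, a type II keratin of the inner root sheath of hair, was past both thresholds for the contrast of cows. It was 1 of the 12 other keratins bright on all 8 arrays, beside 2.03% of the bright probes. Its log2 signals were 9.56, 10.02, 8.17 and 8.28 in the LC group and 9.15, 9.01, 8.23 and 8.95 in the HC group, for cows 1 to 4. As for KRT8, the LC arrays of cows 1 and 2 were the highest, 0.41 or more above the other 6. Cows 1 and 2 were higher than cows 3 and 4 by 1.03 (standard error 0.19), where limma's unadjusted p was 0.00151, and 0.00462 on the cow means. The adjusted p values from limma were 0.291 and 0.817. The KRT74 log2 fold change for diet was -0.17 (standard error 0.19), and limma's unadjusted p was 0.403. The Pearson r of KRT8 and KRT74 over the 8 arrays was 0.910. KRT84, a type II hair keratin that was well above background on 4 LC arrays and 3 HC arrays, was past both thresholds for period. It was 1 of the 24 other keratins with a probe, beside 3.86% of all probes. The log2 difference was -0.75, with an unadjusted p of 0.0485 and an adjusted p of 0.401 from limma. Its signals were low, between 2.95 and 4.60.

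**Figure D4:**
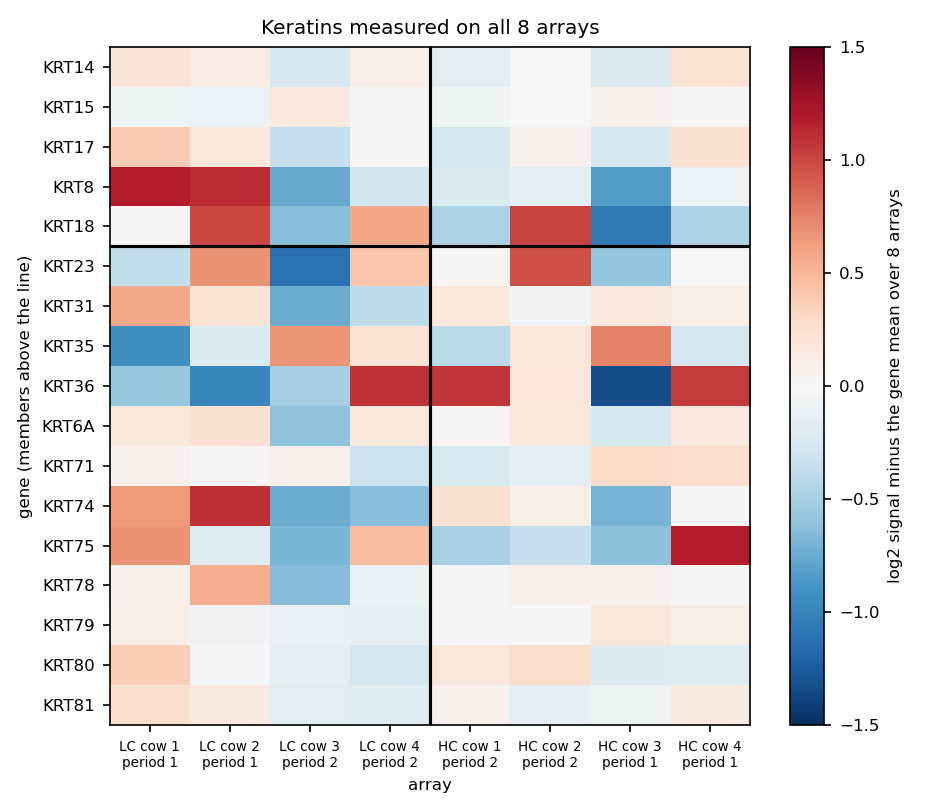
Log2 signal minus the gene's mean over the 8 arrays (colour, red above and blue below) for the 17 keratins that were well above background on all 8 arrays, with the 5 members above the line and the LC arrays left of the vertical line. KRT8 and KRT74 are reddest on the LC arrays of cows 1 and 2, and KRT18 on both arrays of cow 2.

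Of 15 proteins that attach to keratin filaments or bundle them, 5 had a probe, each of them among the bright probes. None met the thresholds for diet, beside 0.274% of the bright probes. Their log2 fold changes for diet ranged from -0.21 to 0.17. Desmoplakin (DSP), which joins keratin filaments to desmosomes, had mean log2 signals of 16.54 ± 0.14 on LC and 16.50 ± 0.16 on HC (SD, n = 4 each). The lowest unadjusted p from limma, 0.0795, was that of DNAJB6, a chaperone that binds KRT18, whose log2 fold change was -0.21.

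KRT8 and KRT18 are also expressed by Merkel cells and by mesothelium, whose markers were examined beside the result for KRT8. Of 5 genes listed for Merkel or endocrine cells, 3 had a probe and KRT20, a keratin of Merkel cells, was well above background on 0 arrays. The log2 of their summed signals was 7.85 to 8.91 in the LC group and 7.96 to 8.75 in the HC group. The highest, 8.76 and 8.91, were those of the LC arrays of cows 1 and 2, and those of the HC arrays of cows 3 and 4 were 8.48 and 8.75. Most of each sum was SYP, a protein of secretory vesicles, at 8.71 and 8.83 on the LC arrays of cows 1 and 2. ATOH1, also in this list, had 3.73 and 4.59 on these LC arrays and 3.51 to 4.28 on the others. SYP was lower in period 2 (log2 difference -0.66, unadjusted p 0.00403 from limma). Of 4 mesothelium genes, UPK3B had a probe, with log2 signals of 10.75 to 10.99 in the LC group and 10.33 to 11.03 in the HC group. The summed log2 signals of 5 fibroblast genes were 13.71 to 14.10 on LC and 13.66 to 14.20 on HC, those of 5 smooth muscle genes 14.03 to 14.34 and 13.93 to 14.47, and those of 3 leukocyte genes 10.04 to 10.54 and 9.96 to 10.96. TEK, the endothelium gene with a probe, had 7.88 to 8.21 on LC and 7.83 to 8.32 on HC. None of these genes met both thresholds for diet, beside 0.922% of all probes, and the part of other cells in the KRT8 signal was not tested.

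Among the 5 members, KRT18 varied most over the 8 arrays, with an SD of 0.79, beside 0.76 for KRT8 and 0.08 to 0.26 for the other 3. The KRT18 probe was dim and its duplicate spots differed by 0.12 to 0.56, so how much of its SD is noise at low signal is not known. Of 6452 other named genes that were well above background on all 8 arrays, the 5 whose signals were most like those of KRT18 over the 8 arrays were PINX1, CCL24, RDX, SNF8 and BOLA3, with Pearson r values of 0.971, 0.970, 0.969, 0.960 and 0.957. PINX1 is an inhibitor of telomerase, CCL24 an eosinophil chemokine and RDX (radixin) a linker of actin to the cell membrane. CCL24 had an SD of 0.62 over the arrays and RDX one of 0.11, so the likeness is of shape and not of size. The CCL24 probe was dim as well, with log2 signals of 4.16 to 6.01. None of these 5 genes met both thresholds for diet, beside 0.274% of the bright probes. Their log2 fold changes for diet ranged from -0.35 to -0.07. These r values are the highest of many candidates over 8 arrays and are given as a description.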

How the data were processed

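RNA of rumen papillae was labelled with Cy3 and hybridized to 8 single-colour Agilent bovine arrays, 4 per diet. Per the file headers, the authors' scanner output (Feature Extraction 10.7.3.1) holds for each spot a background-subtracted intensity, with low values raised to a small positive value and flags for background and outliers. The authors also deposited a table of quantile-normalized log2 values, in which the columns of cows 1 and 2 followed each other's scanner output (r 0.998 or more against 0.994 or 0.995). This touches only the names of these cows, and the table served as an alternative.

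Controls and outlier spots (0 to 13 per array) were removed, log2 intensities were quantile-normalized, and the spots of a probe (mostly 2) were averaged. A probe was well above background where all its spots were. A model of diet, period and interaction was fitted to all 21475 probes with limma 3.58.1 in R 4.3.3 (4 residual and 2.26 prior degrees of freedom), with Benjamini-Hochberg adjustment over all probes. The interaction is coded as cows 1 and 2 minus cows 3 and 4. Exact permutation tests used scipy 1.17.1, and the smallest p they can give is 0.0286. The fit was tested on simulated data drawn with independent arrays and no effect of cow or period. That test therefore cannot show how the fit handles the likeness between the arrays of a cow. The files hold no mean spot signal, so normexp used the median spot signal with offset 50. The 4 arrays of a period share a slide and a scan, so period, slide and scan cannot be told apart, and precision is limited by the number of arrays. The array's annotation is of another genome build than the reference, and no positions are given.

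Groups, periods and the pairing by cow come from the labels. Over the 16030 bright probes (well above background on all arrays), deviations from the diet mean had an r of 0.113 to 0.467 between the arrays of a cow and of -0.237 to 0.185 between cows. Named genes are the members, their partner keratins, KRT25 and KRT77, other keratins and filament partners past both thresholds, and the 5 genes most like the most variable member. DSP, DNAJB6, KRT74, KRT84, the marker genes and those in the last section fall outside that rule and were chosen with their values in view. The members and lists were chosen with earlier results of these data known. Alternatives were other scalings, background correction, the deposited table, filters on dim probes, other terms, cow as a block, other moderation, and each array left out.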

Additional observations from a re-analysis of the deposited data

Results flagged for a closer look

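In the HC group, the KRT8 signal of cow 3 (8.82) lay far from those of the other 3 cows (9.45 to 9.58). The gap took 0.833 of the range of the group, just above Dixon's 95% critical value for 4 samples. Of 10 groups of 4 arrays examined, this was the only such value, and chance gives about 1 in 20.

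The HC minus LC difference of KRT8 was not the same in period 1 as in period 2, but each period sets different cows against each other. It can therefore not be read as a diet effect that changed with period. The difference in period 2 minus that in period 1 was 1.96 on the log2 scale, with an unadjusted p of 0.00221 and an adjusted p of 0.306 from limma. This is the same test as the contrast of cows 1 and 2 with cows 3 and 4. It takes the arrays of a cow as independent, and limma on cow means gave an unadjusted p of 0.0136 and an adjusted p of 0.817.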

How the results depend on the processing

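The count of measured members past both thresholds for diet was 1, or 0 without the interaction term, with diet alone, with cow as a replicate block without period, and with cow as a random block. It stayed at 1 with cow as a block and period. As each array was left out, it was 0 to 1. The count for period was 1, or 0 without the interaction term, and 0 to 1 as each array was left out. That for the interaction was 1 to 2 as each array was left out. The filament partners gave 0 under all 22 settings. Other keratins past both thresholds for diet, KRT25 and KRT77 at 2, both too dim to read, were 0 to 2 as each array was left out. They were 1 with 75th percentile scaling or without moderation, 0 with normexp or with filters on dim probes, and 3 with the deposited table, where KRT85, well above background on 0 arrays, met the thresholds too. The median log2 fold change of the members lay between -0.23 and 0.00. As each array was left out, the log2 fold change was -0.19 to 0.0163 for KRT14, -0.0299 to 0.0529 for KRT15, -0.23 to 0.0026 for KRT17, -0.83 to -0.45 for KRT8 and -0.87 to -0.13 for KRT18. For KRT15 it was -0.0285 with 75th percentile scaling and -0.052 with no scaling. The cause of these changes was not tested.

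Probes past both thresholds for diet numbered 198 in all, 8 with normexp, 415 with the deposited table and 105 with no moderation. They numbered 83 when only probes well above background on at least 4 arrays were fitted. When only probes well above background on all 8 arrays were fitted, they numbered 55, while 44 of these probes passed in the fit to all probes. The count over all probes was 239 to 404 as each array was left out.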

Other observations

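Several keratins known from hair gave signals well above background on all 8 arrays. KRT35, a type I hair keratin, had log2 signals of 10.75 to 12.42. Its signal was higher in cow 3 than in the other cows on each diet, at 12.33 on LC and 12.42 on HC, the animal with the lowest KRT14 and KRT8 signals on each diet. KRT36, another type I hair keratin, ranged from 6.47 to 8.88, with the arrays of cow 4 at 8.88 on LC and 8.85 on HC and the HC array of cow 1 at 8.87. The log2 fold changes for diet were 0.13 and 0.48, with unadjusted p values from limma of 0.674 and 0.456.

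KRT78 had mean log2 signals of 14.97 ± 0.49 on LC and 15.03 ± 0.05 on HC (SD, n = 4 each), so the spread between arrays was wider on LC. The arrays of a diet came from both periods, so this is not a spread between cows alone. The difference in spread was not tested.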
